A study of Homo sapiens with 18 samples.

Results

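The 10 genes described here, SLPI, MUC13, MYOF, DMBT1, TNFRSF12A, EVC, GATA3, CD3E, VCL and ACTA2, are genes of epithelial, stromal or T cell biology that were much lower in the H929 libraries labelled shRBM39 than in those labelled scramble. They were chosen by symbol for that difference, out of 16532 genes in the H929 table and 59421 gene names over all tables. H929 and MM1S are established human multiple myeloma cell lines, labelled as plasma cells. In H929, 3 libraries labelled shRBM39, a short hairpin RNA against RBM39, stood against 3 labelled scramble. In MM1S, 2 shRBM39 libraries stood against 2 scramble libraries, and 3 libraries of cells given indisulam stood against 3 of cells given the vehicle DMSO. RNA immunoprecipitation (RIP) from MM1S gave 1 library with an antibody to RBM39 and 1 with IgG. RBM39 is an RNA-binding protein of pre-mRNA splicing, and indisulam has it tagged by a DCAF15-containing ubiquitin ligase and degraded. The labels give no dose, time or hairpin sequence, and libraries numbered 1 and 2 in MM1S may carry the same hairpin or different ones. Nothing states that replicates were separate cultures, so a p-value reflects the spread among the libraries at hand, which may be technical.

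The genes belong to several tissues and have no shared pathway. SLPI, MUC13 and DMBT1 are products of mucosal surfaces: a secreted protease inhibitor, a membrane-bound mucin and a secreted scavenger receptor protein. MYOF encodes myoferlin, a membrane protein of the ferlin family that takes part in membrane fusion and repair. TNFRSF12A encodes Fn14, the receptor for the cytokine TWEAK, which signals to NF-kB. EVC sits at the base of the primary cilium beside EVC2 and takes part in Hedgehog signalling. GATA3 is a transcription factor of T cells and of several epithelia, and CD3E is a chain of the T cell receptor complex. VCL encodes vinculin, which links integrin adhesions to actin, and ACTA2 encodes smooth muscle actin. VCL and ACTA2 are known targets of the serum response factor SRF, which binds the CArG box.

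Both lines carried most genes of a plasma cell list. In H929 all 20 were in the table, and 18 reached 1 FPKM in enough libraries to be tested. CD27 and TNFRSF13B did not, at or below 0.0141 and 0.505 FPKM. Of the 18, 14 were called higher and 4 lower (limma adjusted p under 0.05), against 24.1% and 48.1% of all genes tested. The 20 genes summed to between 10800 and 10900 FPKM in the libraries labelled shRBM39. In those labelled scramble they summed to between 6830 and 6990 FPKM. Without JCHAIN, the highest, the sums were 6750 to 7070 FPKM against 4460 to 4590 FPKM. FPKM and TPM are both read numbers scaled by gene length and by library size. In MM1S the same list summed to between 10700 and 12600 TPM with shRBM39, against 8350 to 10600 TPM with scramble. With indisulam it summed to between 10600 and 11900 TPM, against 12200 to 12400 TPM with DMSO. Without JCHAIN the sums overlapped, at 5280 to 6990 TPM with shRBM39 against 5470 to 5700 TPM with scramble. The same held for indisulam, at 7660 to 8150 TPM against 8060 to 8430 TPM with DMSO. RBM39 itself went against the H929 labels, at 38.3, 38.6 and 35.6 FPKM in the libraries labelled shRBM39 and 4.56, 4.43 and 4.51 FPKM in those labelled scramble. In MM1S it followed them, at 64.8 and 52.2 TPM with shRBM39 and 176 and 205 TPM with scramble (limma adjusted p = 0.0121). Every direction given for H929 therefore refers to the libraries as labelled, and each would turn if those labels were exchanged. Indisulam replicate 3 stood apart from the other indisulam libraries, and without it the number of genes called in that comparison was 8839 instead of 4024. In H929, 13603 genes that were above 0 in every library gave whole reads, as worked back from FPKM. These genes held between 30450345 and 34358387 reads per library, which is a partial sum. The depth of the MM1S and RIP libraries is unknown.

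**Figure D1:**
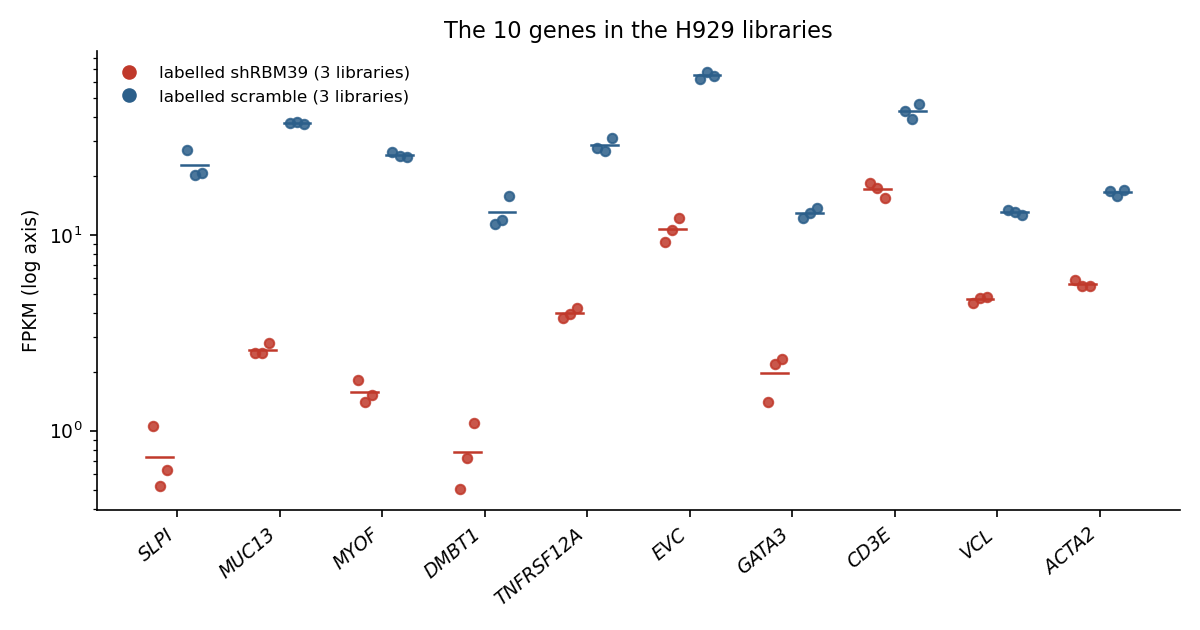
Level of each of the 10 genes in the H929 libraries, in FPKM on a log axis, with 1 point per library and a line at the mean of each group. The 3 libraries labelled shRBM39 lie below the 3 labelled scramble for every gene, from SLPI (0.523 to 1.06 FPKM against 20.2 to 27.2 FPKM) to CD3E (15.5 to 18.3 FPKM against 39.1 to 46.7 FPKM).

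The values in H929 chose the genes, so they are given as a description and carry no test. All 10 had every library labelled shRBM39 below every library labelled scramble, as held for 49.6% of the 10360 genes tested. All 10 passed the threshold in the lower direction, as did 48.1% of genes, while 72.2% passed in either direction. The rule set no numeric threshold. In the order of all genes tested, from the lowest difference, the genes stood at ranks 1, 2, 3, 5, 6, 8, 14, 104, 133 and 144. Differences below are of log2(FPKM + 1), with the standard error (SE) from limma; the median over all genes tested was -0.13, so the 10 genes lay 3.63 to 1.15 below that median.

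Of the mucosal genes, SLPI and DMBT1 had the lowest mean levels of the 10 genes in the libraries labelled shRBM39. SLPI was at 1.06, 0.523 and 0.634 FPKM in the libraries labelled shRBM39 and at 27.2, 20.2 and 20.7 FPKM in those labelled scramble. These values stand for 12 to 25 reads and 416 to 559 reads per library, so the shRBM39 level of SLPI is the least precise of the set. Its log2 difference of -3.77 (SE 0.124) was the lowest of all genes tested. MUC13 was at 2.49, 2.48 and 2.81 FPKM against 37.1, 37.7 and 36.6 FPKM, a mean 6.98% of the scramble mean, and the libraries of each group were within a narrow band. DMBT1 was at 0.502, 0.728 and 1.10 FPKM against 11.3, 12.0 and 15.8 FPKM, and here the libraries of each group spread more widely without overlap. SLPI and DMBT1 reached 1 FPKM in 3 libraries only through the scramble group.

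The genes of membrane, receptor, cilium and transcription factor biology came next. MYOF was at 1.82, 1.41 and 1.51 FPKM in the libraries labelled shRBM39 and 26.4, 25.4 and 25.1 FPKM in those labelled scramble, which is 459 to 613 reads against 7158 to 8173 reads. TNFRSF12A was at 3.75, 3.93 and 4.23 FPKM against 27.8, 26.7 and 31.3 FPKM. EVC had the highest scramble level of the 10 genes, at 9.17, 10.5 and 12.2 FPKM against 62.3, 68.0 and 64.9 FPKM. In the libraries labelled shRBM39 its level was above those of the other genes except CD3E. GATA3 was at 1.40, 2.18 and 2.31 FPKM against 12.2, 12.9 and 13.7 FPKM, with the library labelled shRBM39 replicate 1 the lowest of its group.

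CD3E, VCL and ACTA2 had smaller differences and kept 39.7%, 35.9% and 34.0% of the scramble mean. CD3E was at 18.3, 17.4 and 15.5 FPKM in the libraries labelled shRBM39 and 43.0, 39.1 and 46.7 FPKM in those labelled scramble, without overlap. VCL was at 4.5, 4.73 and 4.79 FPKM against 13.4, 13.1 and 12.6 FPKM. ACTA2 was at 5.86, 5.47 and 5.45 FPKM against 16.7, 15.7 and 17.0 FPKM. The log2 differences of these genes were -1.28, -1.30 and -1.40, close together and apart from the -2.25 to -3.77 of the other 7. In bulk libraries such as these, fewer cells that carry a transcript and less of it per cell cannot be told apart.

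**Figure D2:**
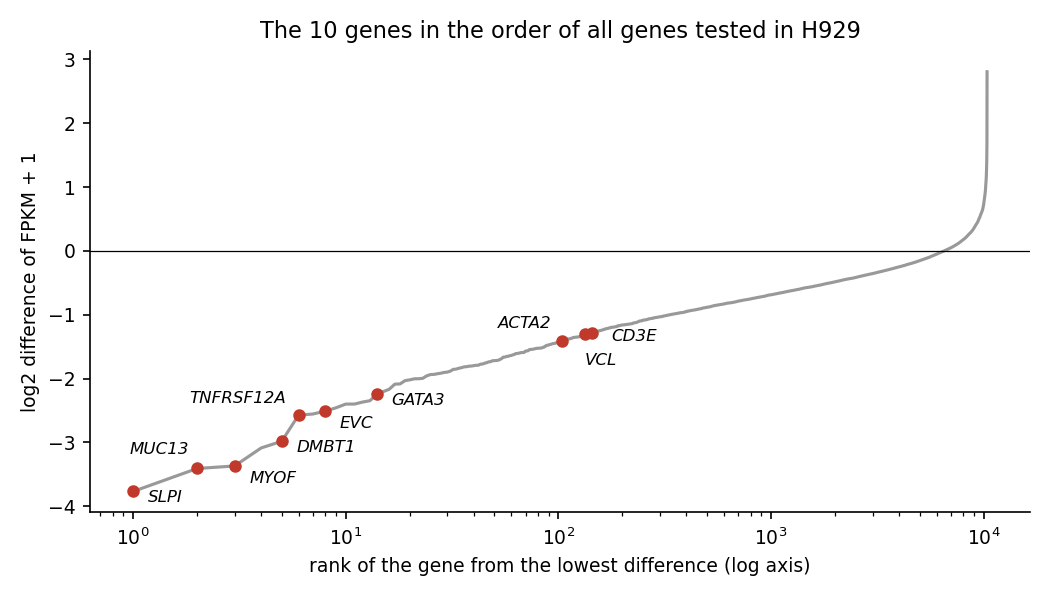
Difference of every gene tested in H929, libraries labelled shRBM39 minus libraries labelled scramble, on the log2(FPKM + 1) scale (y axis) against its rank from the lowest (log x axis). The red points are the 10 genes: 7 lie within ranks 1 to 14, and ACTA2, VCL and CD3E lie at ranks 104, 133 and 144.

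Sequence upstream of the start was looked up for genes that moved together. RefSeq promoter windows (GRCh38.p14) were found for 7 of the 10 genes, in 13 windows because GATA3 has 6 and ACTA2 has 2; CD3E, SLPI and TNFRSF12A were not matched. The 250 bases before the start are shown for MUC13 and DMBT1, which were among the lowest genes in H929, and for ACTA2 (the downstream of its windows) and VCL, the known SRF targets. Capitals mark every match, on either strand, to the motifs searched. The AP-1 motif was TGANTCA. The motif of GATA factors was written AGATAA. The promoter motif named TATA was written TATAAA. The CArG box was allowed at most 1 mismatch in its middle.
MUC13 (chr3:124934752-124935001, minus strand): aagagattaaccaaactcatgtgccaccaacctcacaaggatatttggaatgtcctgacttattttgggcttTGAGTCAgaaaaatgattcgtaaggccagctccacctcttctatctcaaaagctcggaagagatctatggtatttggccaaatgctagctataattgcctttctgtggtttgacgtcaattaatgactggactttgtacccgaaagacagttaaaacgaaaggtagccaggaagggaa
DMBT1 (chr10:122560504-122560753, plus strand): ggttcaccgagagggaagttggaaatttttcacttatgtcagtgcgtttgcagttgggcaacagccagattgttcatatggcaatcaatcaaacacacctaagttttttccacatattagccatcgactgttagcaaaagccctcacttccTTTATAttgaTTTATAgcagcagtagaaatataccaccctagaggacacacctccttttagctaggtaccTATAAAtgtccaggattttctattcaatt
ACTA2 (chr10:88952774-88953023, minus strand): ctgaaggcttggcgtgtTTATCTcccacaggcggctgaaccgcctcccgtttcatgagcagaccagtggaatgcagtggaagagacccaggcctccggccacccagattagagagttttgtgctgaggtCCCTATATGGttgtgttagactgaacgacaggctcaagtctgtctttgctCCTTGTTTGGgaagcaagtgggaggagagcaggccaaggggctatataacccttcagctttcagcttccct
VCL (chr10:73997866-73998115, plus strand): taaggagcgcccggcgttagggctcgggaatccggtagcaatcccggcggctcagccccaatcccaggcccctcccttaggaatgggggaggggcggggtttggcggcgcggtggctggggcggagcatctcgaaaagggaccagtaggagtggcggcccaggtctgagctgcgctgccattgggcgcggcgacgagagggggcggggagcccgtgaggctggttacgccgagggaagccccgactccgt
MUC13 held 1 AP-1 match, 178 bases before its start, and DMBT1 held 3 TATA matches, at 99, 89 and 29 bases before its start. ACTA2 held 1 GATA match on the opposite strand, 233 bases before its start, and 2 CArG matches with 1 mismatch, 121 and 71 bases before it. VCL held none of these letters in its window. Over the 13 windows, AP-1 was in 2, TATA in 2, GATA in 1, the CArG box with 1 mismatch in 1 and the strict CArG box in 0, and 8 windows held no match. Among 35116 promoter windows of the same length the shares were 6.57% for AP-1, 10.7% for TATA, 9.17% for GATA, 7.04% for the CArG box with 1 mismatch and 1.16% for the strict one. A match is a run of letters, not a bound site.

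The genes were spread over 6 chromosomes, and 5 of them, MYOF, DMBT1, GATA3, VCL and ACTA2, lay on chromosome 10. Chromosome 10 held 3.89% of the genes tested in H929 that had a chromosome. Its genes did not shift as a body: their median log2 difference was -0.16, against -0.13 for all genes tested, and 48.7% of them were called lower. By median it stood at place 9 of 23 chromosomes from the lowest.

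In MM1S most of these genes were close to undetected. With shRBM39 against scramble, 3 of the 10 genes (EVC, CD3E and VCL) passed the filter of 1 TPM in 2 libraries, and 7 did not. CD3E and VCL fell, and EVC did not pass the test. The background was 6.35% of 14152 genes called lower and 10.3% called in either direction. Differences are of log2(TPM + 1), tested with limma and adjusted with Benjamini-Hochberg over all genes tested.

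CD3E was at 0.77 and 1.06 TPM in the MM1S shRBM39 libraries and at 4.37 and 5.64 TPM in the scramble libraries. Both shRBM39 libraries lay below both scramble libraries, and the log2 difference came to -1.64 (SE 0.238, limma adjusted p = 0.0229). CD3E passed the filter through the scramble group, where alone both libraries reached 1 TPM. With no filter 0 genes were called, and the adjusted p was 0.0889 for CD3E and 0.149 for VCL, described next. VCL was at 2.25 and 4.70 TPM with shRBM39 and at 11.9 and 10.1 TPM with scramble, which put the groups -1.48 apart in log2 (SE 0.309, limma adjusted p = 0.0468). Its 2 shRBM39 libraries differed from each other more than its 2 scramble libraries did. Leaving out scramble replicate 1 gave adjusted p = 0.172 for CD3E and 0.256 for VCL, and leaving out scramble replicate 2 gave 0.174 and 0.203; in either case 0 genes were called. With the replicate number as a block the values were 0.0541 and 0.0801.

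EVC was well expressed in MM1S, at 24.5 and 19.3 TPM with shRBM39 and 24.8 and 19.99 TPM with scramble. The groups overlapped almost wholly, and the log2 difference was -0.03 (SE 0.187, limma adjusted p = 0.933), a sign that turned under median scaling and quantile normalization. A p of this size does not show that the level was the same. MYOF was at 0.05 and 0.20 TPM with shRBM39 and 1.18 and 0.88 TPM with scramble. These MYOF values did not overlap, as held in this direction for 31.9% of all genes tested, but only 1 library reached 1 TPM and the gene was not tested. ACTA2 was at 0.48 and 0.33 TPM with shRBM39 and 0.04 and 0.22 TPM with scramble, all below 1 TPM. It was the only one of the 10 with both shRBM39 libraries higher, as held for 30.5% of all genes tested. SLPI (0 to 0.77 TPM over all 4 libraries), MUC13 (0.04 to 0.17 TPM), DMBT1 (0.01 to 0.22 TPM), TNFRSF12A (0.31 to 1.27 TPM) and GATA3 (0.21 to 0.98 TPM) overlapped between the groups.

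**Figure D3:**
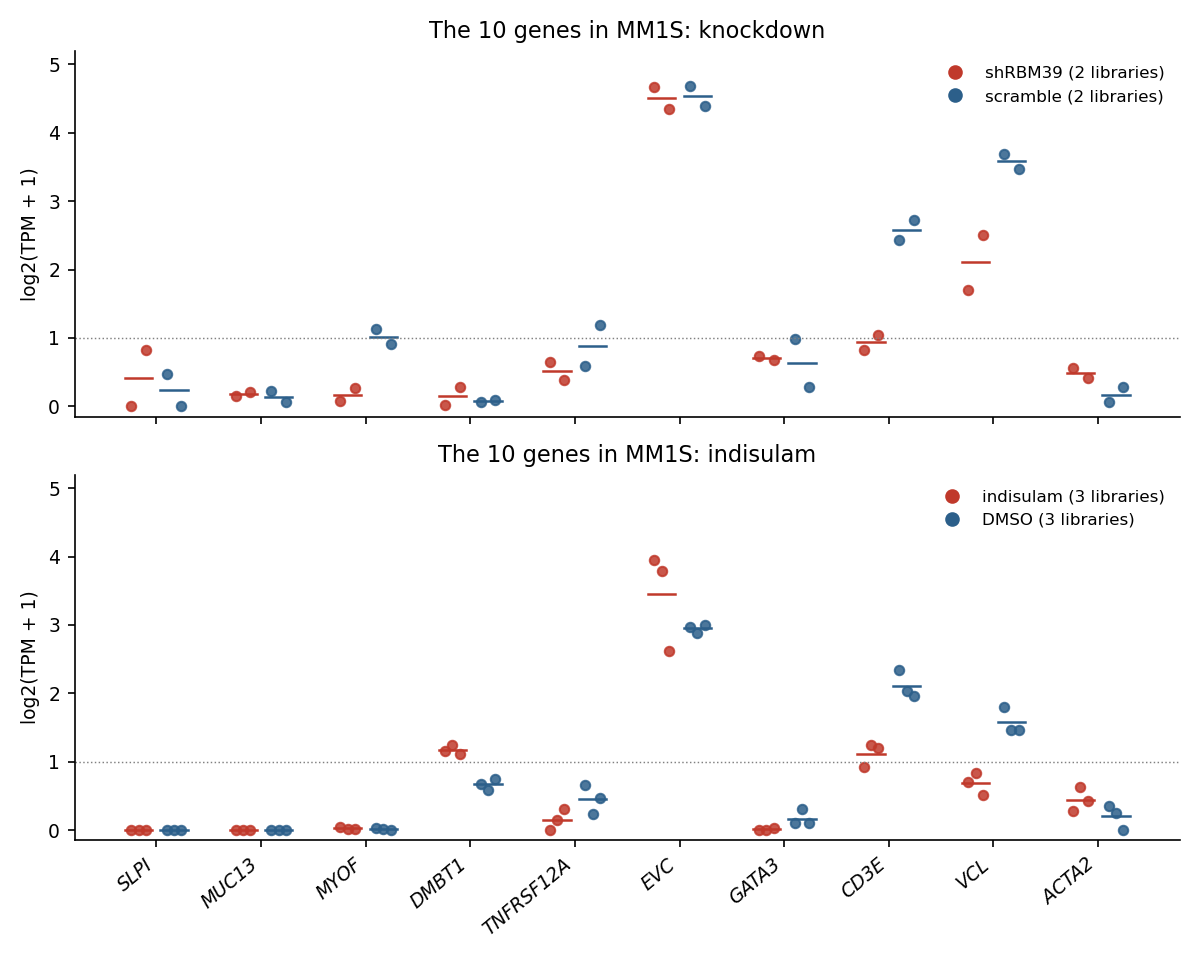
The 10 genes in MM1S as log2(TPM + 1), with 1 point per library a line at the group mean and a dotted line at 1 TPM: shRBM39 beside scramble on top, indisulam beside DMSO below. CD3E and VCL are lower with shRBM39 (0.77 to 1.06 TPM and 2.25 to 4.70 TPM) and with indisulam (0.89 to 1.36 TPM and 0.43 to 0.78 TPM) than in the libraries beside them, while SLPI and MUC13 lie below 1 TPM.

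With indisulam against DMSO, DMBT1, EVC, CD3E and VCL passed the filter and 6 of the 10 genes did not. CD3E and VCL fell and DMBT1 rose, against a background of 21.5% of 13445 genes called lower and 8.47% called higher, or 29.9% in all. The indisulam and hairpin comparisons share no library. CD3E was at 0.89, 1.36 and 1.29 TPM with indisulam and at 4.05, 3.10 and 2.90 TPM with DMSO. All 3 treated libraries lay below all 3 DMSO libraries, as they did for 32.3% of genes tested, and the log2 difference was -0.99 (SE 0.184, limma adjusted p = 0.00704). VCL was at 0.62, 0.78 and 0.43 TPM with indisulam and at 2.50, 1.75 and 1.75 TPM with DMSO, which put the groups -0.89 apart in log2 (SE 0.176, limma adjusted p = 0.009). VCL passed the filter only through the DMSO group, and so did CD3E, which was at 0.89 TPM in indisulam replicate 1. Both calls remained with no filter (adjusted p = 0.0216 for CD3E and 0.0274 for VCL).

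DMBT1, the mucosal scavenger receptor gene, was at 1.24, 1.38 and 1.16 TPM with indisulam and at 0.60, 0.50 and 0.68 TPM with DMSO. All 3 treated libraries were higher, as for 14.9% of genes tested and the reverse of its order in H929 as labelled, and the log2 difference was 0.50 (SE 0.142, limma adjusted p = 0.034). DMBT1 passed the filter only through the indisulam group, and with no filter its adjusted p was 0.0702. Leaving out any one library other than indisulam replicate 3 also ended the call, with adjusted p between 0.0896 and 0.132, as did the replicate block at 0.0972. In all, 8 of the 12 alternatives in which DMBT1 was tested ended its call.

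EVC was at 14.4, 12.9 and 5.14 TPM with indisulam and at 6.86, 6.41 and 6.96 TPM with DMSO. Indisulam replicates 1 and 2 were above every DMSO library and replicate 3 was below them, so the groups overlapped. The log2 difference was 0.50 (SE 0.344, limma adjusted p = 0.307). Without indisulam replicate 3 it was 0.92 with adjusted p = 0.000128. SLPI and MUC13 were listed at 0 in all 6 libraries, and MYOF stayed between 0 and 0.03 TPM. TNFRSF12A was at 0, 0.11 and 0.24 TPM with indisulam and 0.58, 0.18 and 0.39 TPM with DMSO, which overlapped. GATA3 was at 0, 0 and 0.02 TPM against 0.07, 0.24 and 0.07 TPM, and ACTA2 at 0.21, 0.55 and 0.34 TPM against 0.27, 0.19 and 0 TPM. None of these values reached 1 TPM, so no test was made.

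**Figure D4:**
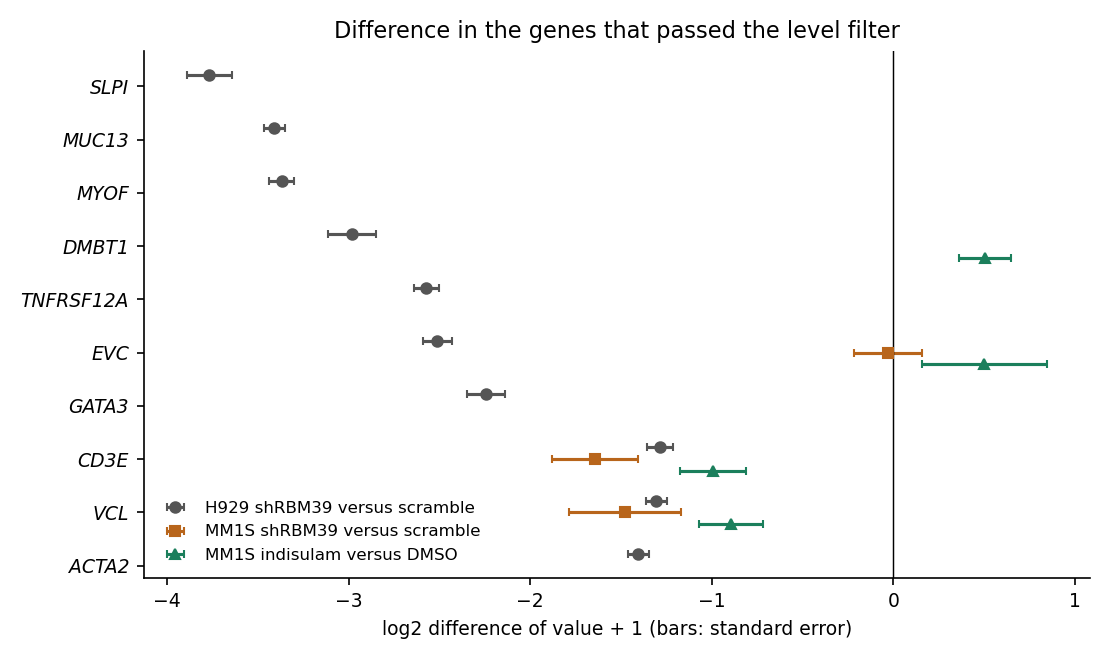
Log2 difference of each of the 10 genes that passed the level filter, with its standard error, in H929 (libraries labelled shRBM39 minus scramble), MM1S shRBM39 minus scramble and MM1S indisulam minus DMSO. CD3E and VCL are below 0 in every comparison (-1.28, -1.64 and -0.99 for CD3E), EVC is at -2.51, -0.03 and 0.50, and DMBT1 is at -2.98 in H929 and 0.50 with indisulam; the H929 signs are as labelled, and with those labels exchanged CD3E and VCL would lie above 0 there, opposite to MM1S.

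In the RIP libraries, 4 of the 10 genes reached 1 FPKM in either library. With 1 library each there is no replicate check and no test. EVC was at 85.9 FPKM in the RBM39 RIP and 57.5 FPKM in the IgG library, a log2((RBM39 + 1)/(IgG + 1)) of 0.57, and 66.4% of 10944 genes had a lower ratio. VCL was at 5.63 FPKM against 18.3 FPKM, a log2 ratio of -1.54, with 14.7% of genes below it. CD3E was listed at 0 in the RBM39 RIP and was at 1.33 FPKM in the IgG library, and GATA3 was at 0.0392 FPKM against 1.18 FPKM. MYOF was at 0.518 FPKM against 0, MUC13 was at 0.0717 FPKM against 0, and SLPI, DMBT1, TNFRSF12A and ACTA2 were listed at 0 in both libraries. The median log2 ratio of all 10944 genes was 0.02.

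CD3E was not accompanied by the other chains of its complex. In H929, CD3D was listed at 0 in the libraries labelled shRBM39 and reached at most 0.0723 FPKM in those labelled scramble, and CD3G stayed at or below 0.0272 FPKM in all 6. CD247, the zeta chain, was between 0.113 and 0.261 FPKM against 0.0323 to 0.126 FPKM. In MM1S, CD3D and CD3G were listed at 0 in all 10 libraries. LCK, the kinase of the T cell receptor, stayed at or below 0.0118 FPKM in H929. CD28, a costimulatory receptor, was higher in the libraries labelled shRBM39 (55.3 ± 2.54 FPKM, against 30.7 ± 1.197 FPKM, SD, n = 3 each, limma adjusted p = 9.31e-09). CD7 and LAT were lower, so that of 3 tested genes of a T cell list besides CD3E and GATA3, 2 were called lower and 1 higher, where 48.1% of all genes tested in H929 were called lower and 24.1% higher. With indisulam 2 of 4 were lower, LAT (15.8 ± 1.65 TPM against 30.5 ± 1.60 TPM, limma adjusted p = 0.00264) and THEMIS. There 21.5% of all genes tested were called lower. THEMIS passed the filter only through the DMSO group. With the MM1S hairpin 0 of 5 were called, against 10.3% of all genes tested. Of 26 genes on the T cell list besides the members, 20 were in the H929 table, and TRAC, TRBC1 and TRBC2, of the T cell receptor itself, were not among them. The 20 summed to between 58.4 and 65.0 FPKM in H929 libraries labelled shRBM39 and 41.6 to 43.6 FPKM in those labelled scramble, most of it CD28. Without CD28 the order turned, with sums between 5.64 and 7.42 FPKM in the libraries labelled shRBM39 and 11.4 to 12.1 FPKM in those labelled scramble. Among GATA3's relatives in H929, GATA4 was between 2.65 and 3.08 FPKM against 3.66 to 4.30 FPKM, and FOXA1, which works with GATA3 in breast epithelium, was lower (1.28 ± 0.147 FPKM against 6.24 ± 0.682 FPKM, limma adjusted p = 1.7e-09).

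**Figure D5:**
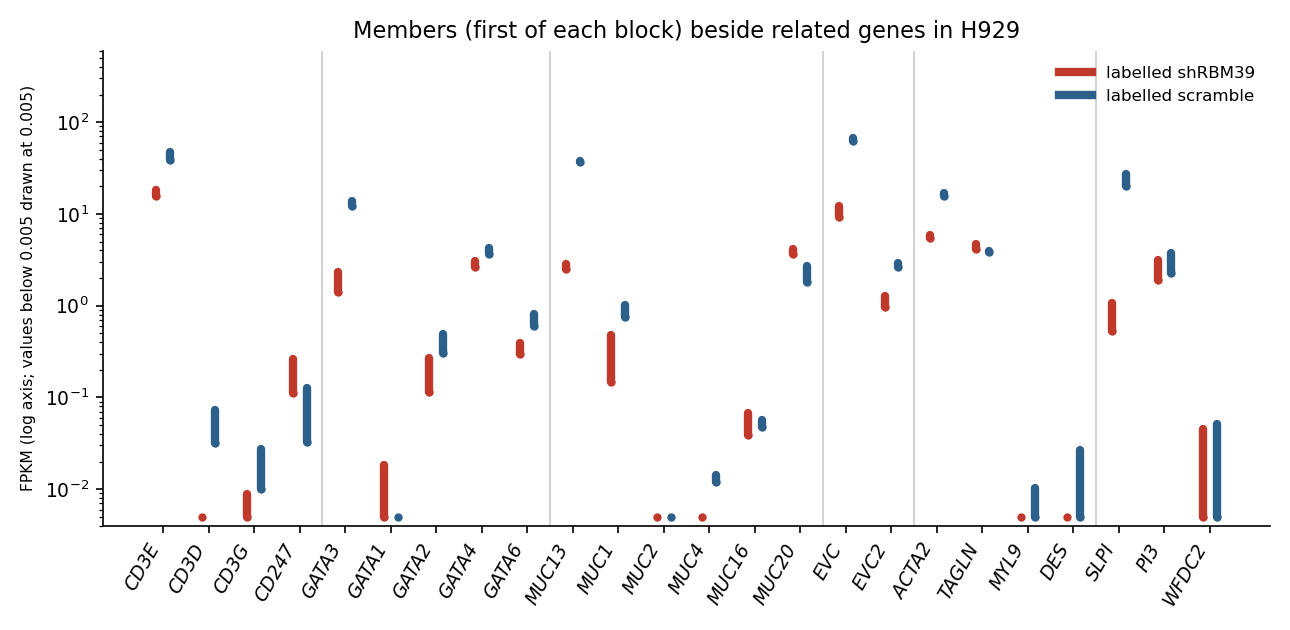
FPKM range (log axis) over the 3 libraries labelled shRBM39 (red) and the 3 labelled scramble (blue) in H929, for 6 of the 10 genes, each first in its block, beside genes of the same family or complex. CD3E lies between 15.5 and 46.7 FPKM while CD3D and CD3G lie below 0.1 FPKM, and MUC20 and TAGLN are not lower in the libraries labelled shRBM39.

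Other epithelial and mucosal genes were few in H929 and did not all go the way of SLPI, MUC13 and DMBT1. Of 24 genes on an epithelial list, 19 were in the table and 3 passed the filter; EPCAM, a defining epithelial marker, stayed at or below 0.0326 FPKM. TJP1 and DSP, of tight junctions and desmosomes, were called lower and CLDN7 higher, where 48.1% of all genes tested in H929 were called lower and 24.1% higher. CLDN7 passed the filter only through the libraries labelled shRBM39. The list summed to between 5.94 and 7.61 FPKM in the libraries labelled shRBM39 and 11.3 to 13.3 FPKM in those labelled scramble. Of the mucosal list besides members, 3 genes passed the filter, 2 of them higher: the mucin gene MUC20 (3.97 ± 0.3003 FPKM against 2.19 ± 0.444 FPKM, limma adjusted p = 3.62e-05) and FCGBP. PI3, a protease inhibitor related to SLPI, was at 2.34 ± 0.676 FPKM against 2.88 ± 0.762 FPKM and did not pass the test. MUC1 was between 0.149 and 0.478 FPKM against 0.754 to 1.01 FPKM, under the filter. In MM1S the mucosal list had 0 genes tested with the hairpin. With indisulam 1 of 2 was lower, the gastric mucin gene MUC6 (1.09 ± 0.461 TPM against 4.87 ± 1.22 TPM, limma adjusted p = 0.00425). MUC6 passed the filter only through the DMSO group. The epithelial list had 2 of 8 lower with the MM1S hairpin, ELF3 and DSP, and 3 of 5 lower with indisulam. The 3 called with indisulam, ESRP1, DSP and VIL1, passed the filter only through the DMSO group. Over all genes tested in MM1S, 6.35% were called lower with the hairpin and 21.5% with indisulam. A fibroblast and matrix list, of which 16 of 22 genes were in the H929 table, summed to between 5.32 and 6.2 FPKM in the libraries labelled shRBM39 and 5.69 to 6.12 FPKM in those labelled scramble. A macrophage and monocyte list, with 10 of 16 genes in the table, summed to between 13.4 and 14.8 FPKM against 25.5 to 27.4 FPKM, nearly all from CD68, a lysosomal membrane protein gene (13.8 ± 0.548 FPKM against 25.5 ± 0.928 FPKM). An endothelial list summed to between 2.63 and 3.09 FPKM against 3.73 to 4.82 FPKM. Most of that sum was ESAM, the only gene of the list tested. Without ESAM the sums overlapped, at 0.111 to 0.204 FPKM against 0.149 to 0.566 FPKM. A B cell list summed to between 56.6 and 59.0 FPKM against 50.7 to 52.6 FPKM. Most of the B cell sum was CD79B, and without it the order turned, at 2.22 to 2.6 FPKM against 5.2 to 5.86 FPKM. FCER2 and BANK1, 2 of the 3 tested genes of that list, were called lower. FCER2 passed the filter only through the libraries labelled scramble. The part of other cell types in these results was not tested.

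VCL and ACTA2 belong with the adhesion and actin genes. Of 23 tested focal adhesion genes besides VCL in H929, 14 were lower and 6 higher, with a median log2 difference of -0.42. Over all genes tested in H929, 48.1% were called lower and 24.1% higher, with a median of -0.13. Under median scaling 13 of the 23 were lower and 9 higher, and of all 10360 genes 3312 were lower and 3932 higher. ZYX, which encodes zyxin of adhesion sites, was at 28.0 ± 2.57 FPKM against 48.8 ± 1.37 FPKM (limma adjusted p = 1.06e-07), and ITGA4, an integrin chain of lymphoid cells, was higher at 122 ± 9.63 FPKM against 47.6 ± 1.15 FPKM. TLN1, which encodes the vinculin partner talin, was at 39.9, 46.2 and 46.9 FPKM against 60.5, 62.4 and 60.4 FPKM. Of 8 SRF target and smooth muscle genes besides ACTA2 and VCL, 5 were lower and 0 higher in H929, and under median scaling 2 were lower and 1 higher. TAGLN, a smooth muscle gene often found with ACTA2, was between 4.11 and 4.65 FPKM against 3.80 to 3.91 FPKM.

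In MM1S, 3 of 21 focal adhesion genes fell with the hairpin and 0 rose: LIMS1, ITGA4 and PARVB. With indisulam 7 of 21 fell and 1, SRC, rose. Over all genes tested, 6.35% were called lower and 3.97% higher with the hairpin, and 21.5% lower and 8.47% higher with indisulam. FLNA, the actin crosslinker filamin A, fell with indisulam (30.1 ± 4.35 TPM against 133 ± 8.70 TPM, SD, n = 3 each, limma adjusted p = 0.000129), and so did SMTN and CNN2, 3 of 9 tested genes of the SRF and smooth muscle list; with the hairpin 0 of 10 were called. The cytoplasmic actins ACTB and ACTG1 both fell with indisulam, ACTB to 1192 ± 102 TPM, against 2783 ± 96.1 TPM (limma adjusted p = 0.000182). With the hairpin ACTG1 fell, to 1214 ± 33.4 TPM, against 1948 ± 7.42 TPM (SD, n = 2 each, limma adjusted p = 0.0205). ACTA2 is a close copy of these actins in sequence, so its values are uncertain where the authors' counting, which is not described, split shared reads.

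Around MYOF and EVC the related genes moved in both directions in H929, and around TNFRSF12A those called were lower. Of 9 tested genes of ferlins and membrane repair besides MYOF, 3 were lower and 4 higher; DYSF, the closest relative of MYOF, stayed at or below 0.023 FPKM, and CAV1, of caveolae, was higher (7.92 ± 0.323 FPKM against 2.23 ± 0.1703 FPKM, limma adjusted p = 1.02e-09). In MM1S the same list had 5 of 10 lower with the hairpin and 5 of 9 lower with indisulam, with 0 higher in either. Over all genes tested, 6.35% were called lower with the hairpin and 21.5% with indisulam. AHNAK, a large membrane-associated protein gene, was at 5.95 ± 4.02 TPM against 33.2 ± 7.83 TPM with the hairpin (limma adjusted p = 0.0347). With indisulam it was at 0.743 ± 0.321 TPM against 10.2 ± 0.837 TPM (limma adjusted p = 0.000182), and it passed the filter only through the DMSO group. In H929 as labelled AHNAK was higher (2.56 ± 0.347 FPKM against 0.991 ± 0.0958 FPKM, limma adjusted p = 1.09e-06). There it passed the filter only through the libraries labelled shRBM39. CAV1 fell with the MM1S hairpin (53.7 ± 10.2 TPM against 116 ± 7.49 TPM, limma adjusted p = 0.0248), and its groups overlapped with indisulam. TNFRSF12A's pathway had 9 of 13 tested genes lower and 0 higher in H929, where 48.1% of all genes tested were called lower and 24.1% higher, with a median of -0.29 against -0.13 for all genes; under median scaling 6 were lower and 3 higher. Among them BIRC3, an inhibitor of apoptosis and NF-kB target, was at 0.750 ± 0.111 FPKM against 4.54 ± 0.155 FPKM (limma adjusted p = 5.92e-10). BIRC3 passed the filter only through the libraries labelled scramble. The NF-kB subunit genes RELB and NFKB2 were lower too. In MM1S 0 of 14 with the hairpin and 0 of 13 with indisulam were called. TNFSF12, the gene of the ligand TWEAK, was at or below 0.11 TPM in MM1S. EVC2, the partner of EVC, was at 1.08, 0.961 and 1.29 FPKM against 2.63, 2.79 and 2.89 FPKM in H929, and the Hedgehog target and receptor PTCH1 was higher (10.3 ± 1.28 FPKM against 5.42 ± 0.222 FPKM, limma adjusted p = 1.02e-06). EVC2 passed the filter in H929 only through the libraries labelled scramble. Of 10 tested Hedgehog and EvC genes besides EVC, 4 were lower and 2 higher in H929, near the 48.1% and 24.1% of all genes tested. With the MM1S hairpin 0 of 10 were called. With indisulam 1 of 9, IFT88, fell, where 21.5% of all genes tested were called lower. IFT88 passed the filter only through the DMSO group.

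Some of the genes lie over another gene in the RefSeq annotation, and the sources do not say whether strand was used in counting. VCL overlaps AP3M1, which was between 14.4 and 15.6 FPKM in H929 libraries labelled shRBM39 and 15.4 to 16.1 FPKM in those labelled scramble. ACTA2 overlaps FAS, at 0.505 to 0.681 FPKM against 1.92 to 1.95 FPKM in H929 and at 60.4 and 61.2 TPM against 28.8 and 17.9 TPM with the MM1S hairpin. EVC overlaps CRMP1, which stayed below 0.6 FPKM in H929. In MM1S, CRMP1 was between 8.92 and 10.23 TPM in the hairpin comparison and between 4.01 and 5.46 TPM in the indisulam comparison. Values of an overlapping pair cannot be told apart where their reads are shared.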

How the data were processed

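Values of 16 RNA sequencing and 2 RIP libraries were used as deposited. Per the labels, TRIzol was used for the RNA and a SMARTER mRNA kit for the libraries. The authors' aligner, counting tool and annotation have no name in the labels (not given in the sources used here). Builds listed in the submitters' processing notes, GRCm38 and mm10, are of the mouse, so no coordinates of the authors are used. The H929 and RIP tables hold FPKM made by the authors. Both MM1S tables are called FPKM by the authors, but the deposited values are TPM: named genes add up to between 995410 and 998265 in each library. The planned test was run on TPM. Tables were normalized separately and were tested only within themselves. Columns matched to no sample numbered 0. In H929, FPKM values gave whole reads (tolerance 0.01) for 13603 of 13629 genes above 0 in all libraries. These reads serve only as depth.

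The limma package 3.58.1 in R 4.3.3, with trend and robust estimation, was applied to log2(value + 1) of each comparison, two-sided. A gene entered with a value of 1 or more in a number of libraries equal to the size of the smaller group. The threshold was an adjusted p (Benjamini-Hochberg) under 0.05. The pseudocount understates changes of low genes. RIP values were compared as log2 ratios with a pseudocount of 1. The members, gene lists and motifs were chosen with earlier results of these data known. Named besides the 10 genes are RBM39, their partners and paralogs (EVC2, CD3D, CD3G, CD247, TNFSF12, TLN1, ACTB, ACTG1, DYSF, MUC1, PI3), up to 4 called genes per list with the largest differences, and overlapping genes. EPCAM, LCK, TAGLN and GATA4 were named after their values were seen. Alternatives were a smaller pseudocount (0.1), testing without a filter or with one at 5, scaling by medians or quantiles, plain limma without trend and robust options, a replicate block, and leaving out each library. The fits were tested on simulated data. Python 3.11.15, NumPy 2.4.6, pandas 2.3.3 and matplotlib 3.10.9 were used otherwise.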

Additional observations from a re-analysis of the deposited data

Results flagged for a closer look

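The 10 genes, RBM39 and the partners and paralogs were searched for groups that did not overlap, in opposite directions in H929 and MM1S. In the comparison of shRBM39 with scramble, 4 genes met this, and the difference between the lines was not tested. Over all genes tested, groups did not overlap for 49.6% lower and 25.1% higher in H929. In MM1S the shares were 31.9% lower and 30.5% higher. RBM39 had a log2 difference of 2.81 in H929, where it goes against the labels, and -1.69 in MM1S. EVC2, the partner of EVC, had -0.84 in H929 and 0.15 in MM1S (limma adjusted p = 0.617 in MM1S). EVC2 passed the filter in H929 only through the libraries labelled scramble. Its MM1S levels were 6.83 and 7.45 TPM with shRBM39 and 6.78 and 5.95 TPM with scramble. TLN1 had -0.46 in H929 and 0.29 in MM1S (limma adjusted p = 0.216 in MM1S). Its MM1S levels were 56.9 and 51.8 TPM with shRBM39 and 47.3 and 41.5 TPM with scramble. ACTG1 had 0.079 in H929 (limma adjusted p = 0.067) and -0.68 in MM1S. The H929 signs are as labelled and so rest on labels that RBM39 goes against. With those labels exchanged, all 4 genes would have the same sign in both lines. That follows from picking genes with opposite signs, so it says nothing about the labels.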

How the results depend on the processing

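The 10 genes were chosen for their H929 values, so their H929 calls under the alternatives say nothing of stability. Over all genes in H929, 5498 to 8411 were called under the 13 alternatives; calls were higher in 33.4% of cases, 54.3% under median scaling and 49.6% under quantile normalization. With indisulam 28.3% of calls were higher, 46.7% under median scaling and 52.1% under quantile normalization. In the MM1S hairpin comparison 2 of the 10 genes and 1461 genes in all were called. The 2 became 1 with a pseudocount of 0.1, a filter at 5, quantile normalization, median scaling or limma without trend and robust, and 0 with no filter; they ranged from 0 to 2 when a library was left out, which leaves a lone library assumed to vary like the other group. The total was 0 with no filter and 0 to 1769 when a library was left out. Adjusted p ranged over the alternatives from 0.0226 to 0.174 for CD3E and from 0.0171 to 0.256 for VCL, always with a negative difference. The difference of EVC was 0.0163 under quantile normalization and 0.0127 under median scaling, and -0.193 to 0.134 when a library was left out (above 0 without scramble replicate 1 or shRBM39 replicate 2). With indisulam 3 of the 10 genes were called, 0 with a filter at 5, where 1 was tested, and 2 to 4 when a library was left out; the 4024 genes in all were 2001 to 8839. CD3E and VCL passed wherever they were tested. RIP log2 ratios with a pseudocount of 0.1 were -3.2 for GATA3 and -3.84 for CD3E. The causes were not tested.

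Same-numbered libraries did not deviate together: correlations were 0.129, -0.000441 and 0.0253 in H929, -0.142 in the MM1S hairpin comparison and 0.137, -0.148 and -0.0255 with indisulam, so the replicate block is only an alternative. The replicate block gave 255 genes and 0 of the 10 in the MM1S hairpin comparison, 7530 genes in H929 and 3176 with indisulam. A crossed replicate block, added after the data were seen, gave 772 genes and 0 of the 10 in the hairpin comparison. Depth is unknown outside H929, so genes below 1 TPM cannot be called absent.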
